A study of Homo sapiens with 24 samples.

Results

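HCT116 is a human colorectal carcinoma line. In derivatives of it, an auxin-inducible degron (AID), a tag through which auxin triggers breakdown of the fused protein, had been joined to DNMT1, to UHRF1 or to both. The 12 libraries compared here, of 24 in the series, were made from cells that had not yet received auxin (day 0). The 6 libraries of lines with the DNMT1 tag (3 of DNMT1-AID cells and 3 of the compound UHRF1-AID/DNMT1-AID cells) were compared with the 6 of lines without it (3 of WT and 3 of UHRF1-AID cells), with the UHRF1 tag as a covariate. The libraries were chosen by line and day. All lines, WT included, carry a doxycycline-inducible OsTIR1, the plant receptor that auxin acts through. The DNMT1 tag, with a hygromycin resistance gene and a red fluorescent protein, had been put at the N-terminus in the first coding exon. The UHRF1 tag is C-terminal, and the compound line was made from UHRF1-AID cells. Edited lines were picked as colonies after drug selection, whereas the WT line was not edited at these genes, so that the tag and the selection cannot be told apart. Per the study's methods, separate clones served as biological replicates of edited lines, whereas the labels do not tie a library to a clone, and p-values measure the spread between these libraries.

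DNMT1 is the maintenance methyltransferase that copies CpG methylation to the new DNA strand after replication. UHRF1 recognises hemimethylated CpG and recruits DNMT1 to it. A tag can alter a protein or its transcript before any degradation is induced, and the day 0 comparison asks what the transcriptome of tagged cells looked like at that point.

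Libraries held between 18630957 and 25073821 counts on genes. Of 58735 Ensembl genes, 27622 had a count at day 0 and 14472 passed the filter on low counts and were tested. Levels are CPM, counts relative to the TMM-scaled library size, and fold changes are tagged minus untagged on the log2 scale. Called genes had an adjusted p under 0.05 (edgeR quasi-likelihood test, Benjamini-Hochberg) with a log2 fold change above 1 or below -1. Epithelial markers were abundant, as the label of a colorectal carcinoma line implies, apart from the brush border gene VIL1. KRT8 lay between 1615 and 3144 CPM and EPCAM between 334 and 539 CPM over the 12 libraries, whereas VIL1 reached no more than 2 counts. Summed over 8 epithelial markers the level was between 4219 and 5518 CPM in untagged and between 5632 and 7142 CPM in tagged libraries. KRT8 and KRT19 (1496 to 2302 CPM) were the most abundant of them, so the sums mostly follow these genes, and they were not tested. Summed over 10 blood markers the level was at most 0.709 CPM. Among 11 fibroblast and endothelial markers COL1A1 was the most abundant, with a median of 4.68 CPM, and PDGFRA and LUM had 0 counts in all 12 libraries.

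Libraries stood apart in a gene length trend. Across the 14472 genes, the deviation of a library from the mean of all 12 fell with summed exon length in WT replicate 3 (Spearman's rho -0.295), DNMT1-AID replicate 1 (-0.299) and DNMT1-AID replicate 2 (-0.256). It rose with length in WT replicates 1 and 2 (0.300 and 0.282) and in the 3 UHRF1-AID libraries (0.157 to 0.314). In DNMT1-AID replicate 3 rho was 0.0918, and in the compound libraries it lay between -0.0772 and -0.0108. These are correlations across genes, which are not independent replicates. The trend therefore moved with the tag as well as within lines, and the pooled log2 fold change itself had a rho of -0.33 with gene length. Its part in the results was not tested beyond the refits given beside them, which added the length slope per library to the model or left out the 3 libraries with the strongest downward trend, on the same genes. Leaving these out keeps 1 DNMT1-AID library, which is assumed to vary like those of the other lines.

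**Figure D1:**
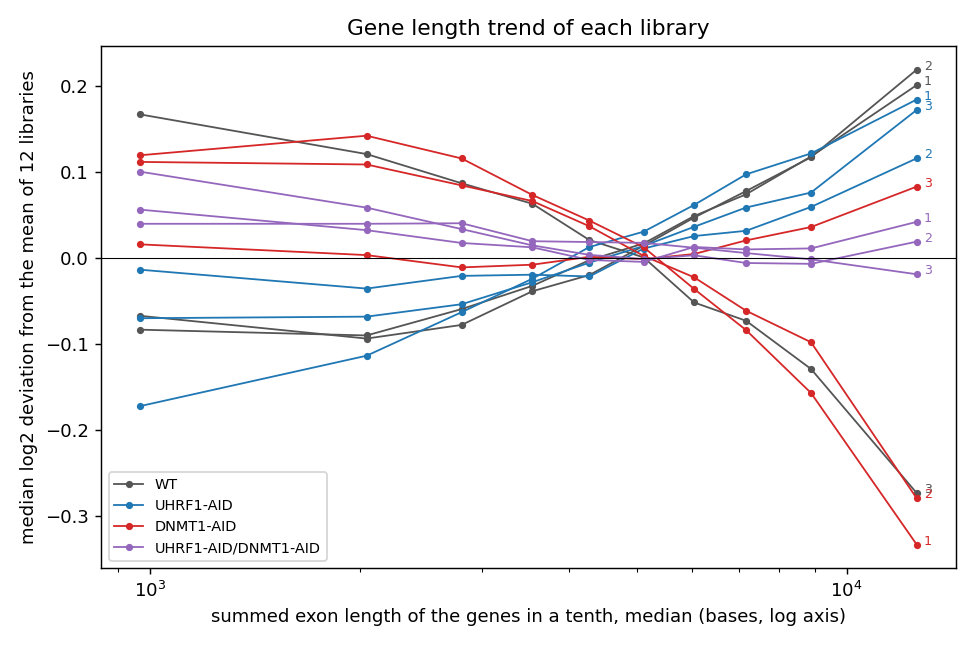
Median log2 deviation of each library from the mean of 12 libraries (y axis) for 10 equal groups of the tested genes ordered by summed exon length (x axis, bases, log scale). Each line is 1 library, coloured by cell line and numbered by replicate at its right end. In the group of longest genes WT replicate 3 was at -0.27 and DNMT1-AID replicates 1 and 2 at -0.33 and -0.28, whereas WT replicates 1 and 2 were at 0.20 and 0.22.

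The transcript of the tagged gene was lower in tagged lines. DNMT1 (ENSG00000130816, hg38 chromosome 19, 10133345 to 10231286) was at 173, 181 and 73.6 CPM in WT cells and at 173, 177 and 190 CPM in the UHRF1-AID line. Tagged DNMT1-AID cells were at 27.7, 29.7 and 73.3 CPM and compound cells at 77.4, 77.8 and 39.7 CPM. WT replicate 3 lay far below the other untagged libraries, and the groups overlapped there, since 2 compound libraries were above it. The pooled log2 fold change was -1.59 (SE 0.308, adjusted p = 0.0459 by edgeR). Within strata of the UHRF1 tag an exact permutation test over 400 arrangements gave p = 0.005 (2-sided), the smallest it can give. The fold was -1.71 (SE 0.453) between DNMT1-AID and WT cells and -1.47 (SE 0.448) between compound and UHRF1-AID cells. The call by edgeR was close to its threshold. With the length slope as a covariate the log2 fold change was -1.06 with an adjusted p of 0.0554, and without the 3 libraries of strongest downward length trend it was -1.41 with an adjusted p of 0.00789. DNMT1 has a summed exon length of 9796 bases, beside a median of 4684.5 over all genes tested. Leaving out single libraries gave adjusted p-values between 0.0114 without WT replicate 3 and 0.125 without WT replicate 1, and the call also ended without WT replicate 2 (0.122), UHRF1-AID replicates 1, 2 and 3 (0.107, 0.0564 and 0.111), DNMT1-AID replicate 1 (0.0989) and compound replicates 1, 2 and 3 (0.0648, 0.0960 and 0.117). UHRF1 differed by -0.16 (SE 0.272, adjusted p = 0.753). Its level was 73.4 ± 22.1 CPM in WT and 67.3 ± 34.1 CPM in DNMT1-AID cells, and with its own tag 169 ± 21.7 CPM in the UHRF1-AID line and 147 ± 60.2 CPM in the compound line (SD, n = 3).

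**Figure D2:**
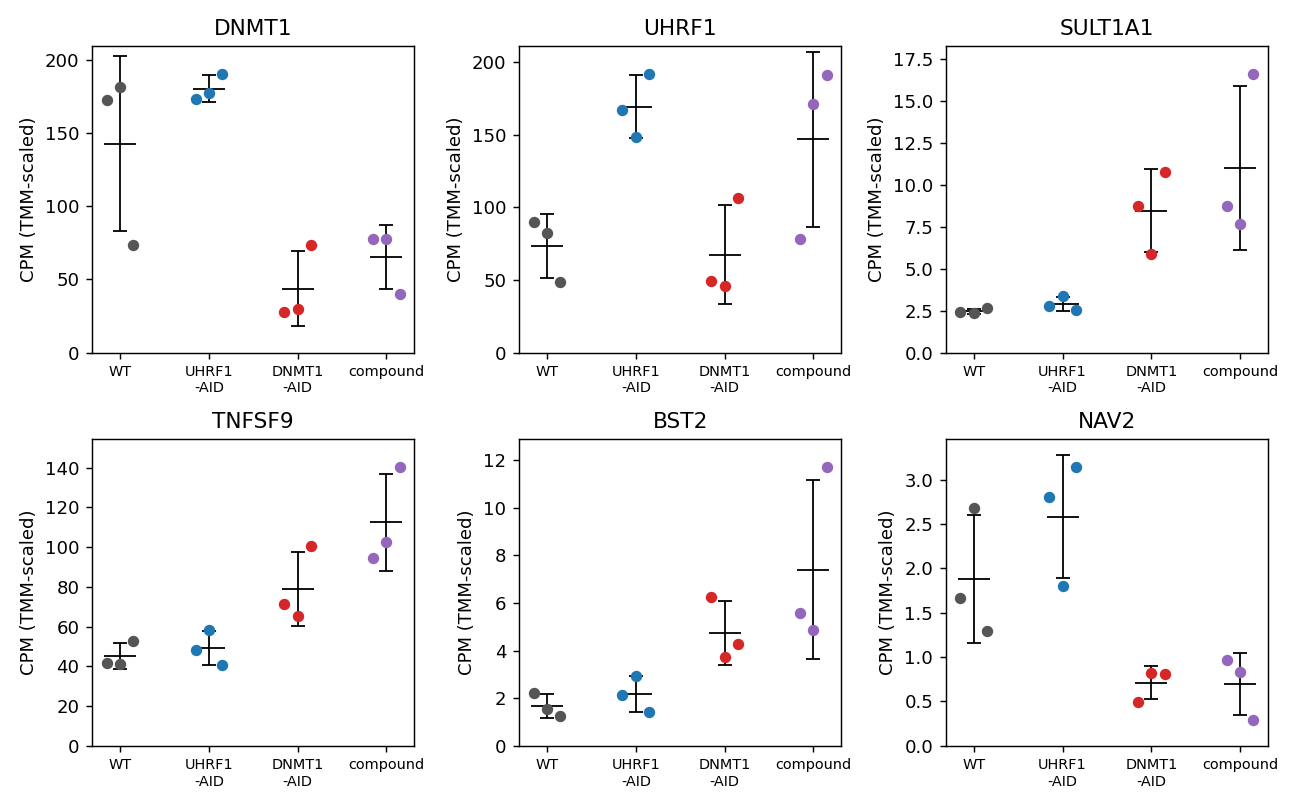
CPM of 6 genes (y axis, from 0) in the 3 libraries of each of the 4 lines at day 0. Points are libraries, horizontal bars are means and error bars are SD (n = 3). DNMT1 was at 73.6 CPM in WT replicate 3 and at 173 CPM or more in the other 5 untagged libraries.

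Genes around the insertion did not pass the test. Within 500000 bases of the ends of DNMT1 the tables hold 66 other genes, 28 of which were tested. Their median log2 fold change was 0.12, 0 had an adjusted p under 0.05 by edgeR and 1 by DESeq2, and 6 had an unadjusted p under 0.05, as did 3107 of all 14472 genes (21.5%). The nearest tested gene on one side was EIF3G, a translation initiation factor subunit, at 0.13 (SE 0.0662, adjusted p = 0.267). On the other side S1PR2, a sphingosine 1-phosphate receptor, overlaps the annotated span of DNMT1 on the same strand and was at -0.00 (SE 0.126, adjusted p = 0.988), so that reads in the overlap cannot be assigned with certainty. MRPL4, a mitochondrial ribosomal protein gene, was the nearest without overlap, at 0.15 (SE 0.0684, adjusted p = 0.228). ICAM5 had the smallest p of the 28, with a log2 fold change of -0.41 (SE 0.126, adjusted p = 0.0986). Over chromosomes the median pooled log2 fold change lay between -0.04 (chromosome 18) and 0.01 (chromosome 11). Chromosome 19, which holds DNMT1, had the lowest median between DNMT1-AID and WT cells (-0.07). Between compound and UHRF1-AID cells it had the highest (0.06).

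Over the whole transcriptome few genes were called. Of 14472 genes, 31 were called (0.214%), 17 higher (0.117%) and 14 lower (0.0967%) in tagged lines. With no minimum fold, 143 genes had an adjusted p under 0.05 (0.988%), 89 higher (0.615%) and 54 lower (0.373%). The libraries of both groups did not overlap for 11 of the 17 and 7 of the 14, beside 233 of all genes tested (1.61%). The filter on low counts asked for 0.479 CPM in at least 3 libraries, and 7 of the 17 met this only through tagged libraries and 5 of the 14 only through untagged ones. Such genes were tested only because they were high in 1 group. The other 10 higher and 9 lower genes met the filter in each group alone. The 89 higher genes had a median summed exon length of 3050 bases and the 54 lower genes one of 6448.5, beside 4684.5 for all genes. With the length slope as a covariate 18 genes were called higher and 1 lower, 8 of the 17 and 1 of the 14 among them. The lower gene, LINC02683, had met the filter only through untagged libraries. Of the 8 higher genes, PURPL, COL6A3 and AFAP1-AS1 had met it only through tagged ones. Without the 3 libraries of strongest downward trend 89 were called higher and 79 lower, all 31 among them, in a comparison of 5 untagged with 4 tagged libraries. Filtering these 9 libraries anew, which also admits genes with counts in the 1 DNMT1-AID library left, gave 106 and 74 of 15215 genes.

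The size of the lists rested on single libraries. Genes called higher numbered 1 without WT replicate 1, 1 without WT replicate 2, 62 without WT replicate 3, 2 without UHRF1-AID replicate 1, 1 without UHRF1-AID replicate 3, 5 without DNMT1-AID replicate 1, 35 without DNMT1-AID replicate 2, and 6 and 2 without compound replicates 2 and 3. Genes called lower numbered 0 without WT replicate 1 or 2, UHRF1-AID replicate 1 or 3, DNMT1-AID replicate 1, or compound replicate 2 or 3. They numbered 73 without WT replicate 3, 36 without DNMT1-AID replicate 2, 9 without DNMT1-AID replicate 3 and 6 without compound replicate 1. SULT1A1 passed in each of these refits. By DESeq2 45 genes were called higher and 39 lower.

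**Figure D3:**
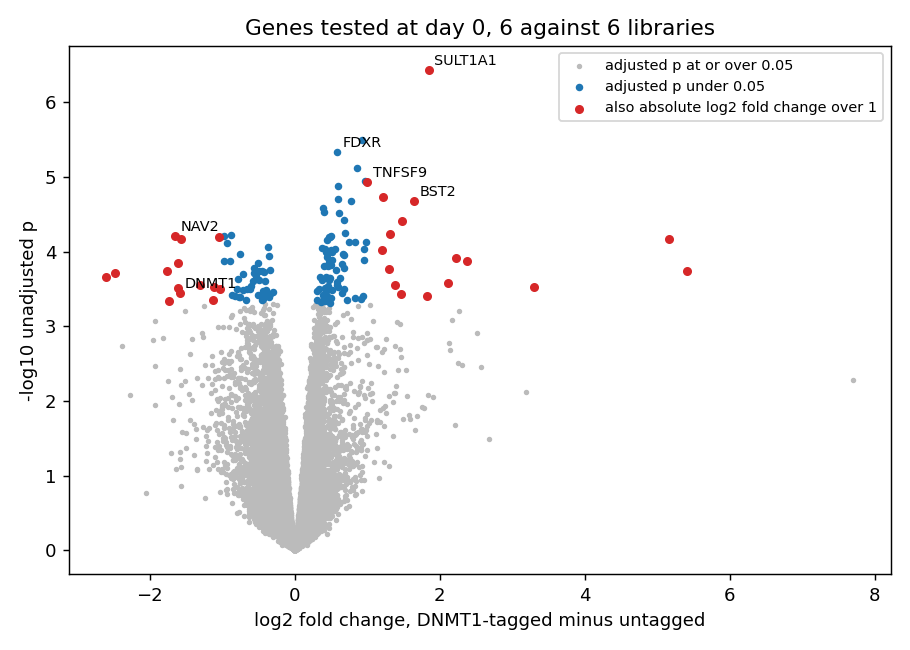
Pooled log2 fold change (x axis, DNMT1-tagged minus untagged) against -log10 of the unadjusted p (y axis) for the 14472 genes tested in 12 libraries. Blue points have an adjusted p under 0.05 and red points are the 31 genes called. SULT1A1 had the smallest p.

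SULT1A1 (ENSG00000196502, chromosome 16, 28605196 to 28623625), a cytosolic sulfotransferase of phenolic compounds, had the smallest p. It was at 2.41, 2.37 and 2.64 CPM in WT cells and at 2.81, 3.35 and 2.55 CPM in the UHRF1-AID line. Tagged DNMT1-AID libraries were at 8.74, 5.89 and 10.8 CPM, and compound libraries at 8.75, 7.67 and 16.6 CPM. Every tagged library was above every untagged one, and the log2 fold change was 1.85 (SE 0.207, adjusted p = 0.00536). SULT1A1 has near-identical paralogs on the same chromosome, and how reads with several alignments were counted is not stated, so its counts are uncertain to that extent.

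TNFSF9, the ligand of the costimulatory receptor 4-1BB, was at 47.1 ± 7.17 CPM in untagged and 95.7 ± 26.8 CPM in tagged libraries (SD, n = 6). Its log2 fold change was 1.00 (SE 0.146, adjusted p = 0.0272). BST2, the antiviral membrane protein tetherin, was between 1.24 and 2.94 CPM in untagged libraries and between 3.72 and 11.7 CPM in tagged ones. It rose by 1.65 (SE 0.263, adjusted p = 0.0282). TWIST1, a transcription factor of mesenchymal cells, rose by 1.21 (SE 0.191, adjusted p = 0.0282), from 2.70 ± 0.816 to 6.45 ± 1.99 CPM (SD, n = 6). For these 3 genes the groups did not overlap. TNFSF9 lost its call with the length slope as a covariate, at the same fold (adjusted p = 0.0527), while BST2 and TWIST1 were at 1.69 and 1.29 (adjusted p = 0.0480 and 0.0255).

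The 250 bases before the RefSeq start of DNMT1, the tagged gene, and of TNFSF9 and BST2, which rose, are shown with their CG content. They are the RefSeq promoters on GRCh38.p14, read 5′ to 3′ on the strand of the gene, with each CG (the same letters on both strands) in capitals. DNMT1 lies at chr19:10194954-10195203, strand -, TNFSF9 at chr19:6530776-6531025, strand + and BST2 at chr19:17405631-17405880, strand -. The DNMT1 window lies inside the longer Ensembl span given above, and which start these cells use was not measured.
DNMT1: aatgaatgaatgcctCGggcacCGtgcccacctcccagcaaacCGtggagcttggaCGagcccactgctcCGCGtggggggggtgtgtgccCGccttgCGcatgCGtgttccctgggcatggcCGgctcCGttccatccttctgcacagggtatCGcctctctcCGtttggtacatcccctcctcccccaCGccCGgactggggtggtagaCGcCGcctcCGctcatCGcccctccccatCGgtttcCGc
TNFSF9: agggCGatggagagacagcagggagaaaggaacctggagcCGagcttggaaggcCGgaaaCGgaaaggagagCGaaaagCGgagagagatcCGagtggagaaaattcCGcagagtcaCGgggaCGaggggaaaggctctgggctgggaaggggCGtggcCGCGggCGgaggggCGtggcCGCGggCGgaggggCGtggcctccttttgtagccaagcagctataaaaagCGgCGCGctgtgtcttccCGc
BST2: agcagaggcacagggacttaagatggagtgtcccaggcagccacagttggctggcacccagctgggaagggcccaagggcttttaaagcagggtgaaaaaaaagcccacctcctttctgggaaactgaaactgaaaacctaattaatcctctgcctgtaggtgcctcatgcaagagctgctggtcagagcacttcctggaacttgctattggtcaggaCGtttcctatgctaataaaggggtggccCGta
The DNMT1 window held 21 CG and that of TNFSF9 23, whereas that of BST2 held 2. Over the 27305 promoters of the table the median was 11, and 93.6% held at least 1. A promoter was matched for 10777 of the 14472 genes tested (74.47%), and CG content was not compared between groups of genes. The windows shown are examples only. Methylation was not measured in these libraries.

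ENSG00000251095, which has no symbol in the name table used, was at 3.88 ± 1.46 CPM in untagged and 8.89 ± 2.65 CPM in tagged libraries (SD, n = 6), with overlapping groups, and rose by 1.20 (SE 0.222, adjusted p = 0.0347). Several other higher genes had lower levels. SERPINF1, a secreted serpin, rose by 1.48 (SE 0.251, adjusted p = 0.0345) from 0.663 ± 0.226 to 1.86 ± 0.654 CPM (SD, n = 6). TNNC1, a troponin subunit, rose by 1.31 (SE 0.232, adjusted p = 0.0345), with overlapping groups. The noncoding RNA PURPL had 1, 0 and 0 counts in WT and 0, 3 and 0 in UHRF1-AID libraries, against 5, 5 and 48 in DNMT1-AID and 66, 22 and 36 in compound cells. COL6A3, a collagen chain, had between 0 and 6 counts in untagged and between 4 and 31 in tagged libraries. SMIM22 had between 1 and 6 counts in untagged libraries and between 12 and 37 in tagged ones. PURPL, COL6A3 and SMIM22 were under the filter in all 6 untagged libraries and were tested only because of tagged ones, so their counts are a description, and their fitted fold changes depend on the prior count. SERPINF1 stayed past the threshold with the length slope as a covariate (adjusted p = 0.0255), and TNNC1 and ENSG00000251095 did not (adjusted p = 0.0518 each). AFAP1-AS1, an antisense RNA named after its values were seen, had 0 counts in every UHRF1-AID library and 14, 27 and 90 in compound cells, at least 13.1-fold higher against a floor of 3 counts per library, and at least 6.16-fold without compound replicate 3. In DNMT1-AID cells it had 0, 2 and 6 counts, and it too was tested only because of tagged libraries.

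Lower genes were mostly weakly expressed. NAV2, a neuron navigator gene, was at 2.23 ± 0.741 CPM in untagged and 0.704 ± 0.253 CPM in tagged libraries (SD, n = 6) and fell by 1.65 on the log2 scale (SE 0.294, adjusted p = 0.0345). SGPP2, a sphingosine 1-phosphate phosphatase, fell by 1.57 (SE 0.281, adjusted p = 0.0345), and the pseudogene LRRC37A17P fell by 1.05 (SE 0.187, adjusted p = 0.0345). The groups did not overlap for any of these 3 genes. With the length slope as a covariate these 3 were at -1.35, -1.34 and -0.93 (adjusted p = 0.0652, 0.0570 and 0.0720). HS3ST3B1, a heparan sulfate sulfotransferase, had between 10 and 34 counts in untagged and between 5 and 12 in tagged libraries. NELL2, a secreted glycoprotein, had between 8 and 19 and between 1 and 6. CACNA2D1, a calcium channel subunit, had between 3 and 16 and between 0 and 6, and the noncoding RNA LINC02683 between 5 and 36 and between 0 and 6. These 4 genes met the filter only through untagged libraries, so their counts are a description as well. LINC02683 was the 1 lower gene still called with the length slope. No lower gene that met the filter in each group alone stayed called in that fit. The better expressed genes ADM2, which encodes a peptide hormone, SLC6A9, a glycine transporter, and NIBAN1, a stress-responsive gene, fell by 1.30, 1.12 and 1.61 (adjusted p = 0.0439 each). Their groups overlapped, and with the length slope as a covariate they were at -0.68, -0.97 and -1.25 (adjusted p = 0.0774, 0.119 and 0.134).

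No gene list had more than 2 members called with the minimum fold. Without that minimum, p53 targets had the most. These are genes that the tumour suppressor p53 activates after DNA damage, among them cell cycle, repair and apoptosis genes. Of 28 members 26 were tested, and 7 were higher at an adjusted p under 0.05 and 0 lower by edgeR. The background was 0.615% higher and 0.373% lower of all genes. At an unadjusted p under 0.05, 17 were higher and 3 lower, beside 11.1% and 10.4% of all genes. By DESeq2 14 were higher and SESN2 and GDF15 lower, beside 3.03% and 3.30% (6.33% in all) of 14010 genes with an adjusted p. These shares are the background for the other lists too. The median log2 fold change of the list was 0.35, beside -0.01 for all genes. It was 0.33 between DNMT1-AID and WT cells and 0.31 between compound and UHRF1-AID cells. In these contrasts 21 and 20 of the 26 were above 0, beside 48.6% and 48.9% of all genes. In single libraries the median over the list, relative to the mean of WT cells, lay between 0.11 and 0.49 in the 6 tagged libraries and between -0.08 and 0.03 in the 6 untagged ones. The list was singled out after its values were seen.

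FDXR, the mitochondrial ferredoxin reductase, was at 132 ± 13.6 CPM in untagged and 197 ± 18.1 CPM in tagged libraries (SD, n = 6) and rose by 0.58 (SE 0.0806, adjusted p = 0.0227). The ribonucleotide reductase subunit RRM2B rose by 0.38 (SE 0.0627, adjusted p = 0.0318). The groups did not overlap for either gene. TRIAP1, AEN and FAS, the death receptor, rose by 0.56, 0.50 and 0.47 (adjusted p = 0.0347 each), DDB2, a nucleotide excision repair factor, by 0.49 (adjusted p = 0.0409) and TP53I3 by 0.42 (adjusted p = 0.0460). CDKN1A, the cell cycle inhibitor p21, was at 0.22 (SE 0.0813, adjusted p = 0.148) and MDM2, the ubiquitin ligase of p53, at 0.25 (SE 0.0656, adjusted p = 0.0708). SESN2 was at -1.06 (SE 0.339, adjusted p = 0.118) and GDF15 at -0.35 (SE 0.105, adjusted p = 0.0914). When the length slope was a covariate FAS, DDB2 and TP53I3 did not pass (adjusted p = 0.0518, 0.0603 and 0.0917). In that fit 6 members were higher and 0 lower by edgeR, FDXR, RRM2B, TRIAP1 and AEN together with ZMAT3 and BAX (adjusted p = 0.0436 and 0.0344), beside 0.484% and 0.0553% of all genes (0.539% in both directions). Without the 3 libraries of strongest downward trend 16 were higher and SESN2 lower (adjusted p = 0.0484), beside 9.35% and 8.98% of all genes (18.3% in both directions). The count of higher members was 0 by edgeR without WT replicate 1 or 2 or UHRF1-AID replicate 1 or 3, 1 without DNMT1-AID replicate 1 or compound replicate 2 or 3, and 14 without WT replicate 3 or without DNMT1-AID replicate 2.

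**Figure D4:**
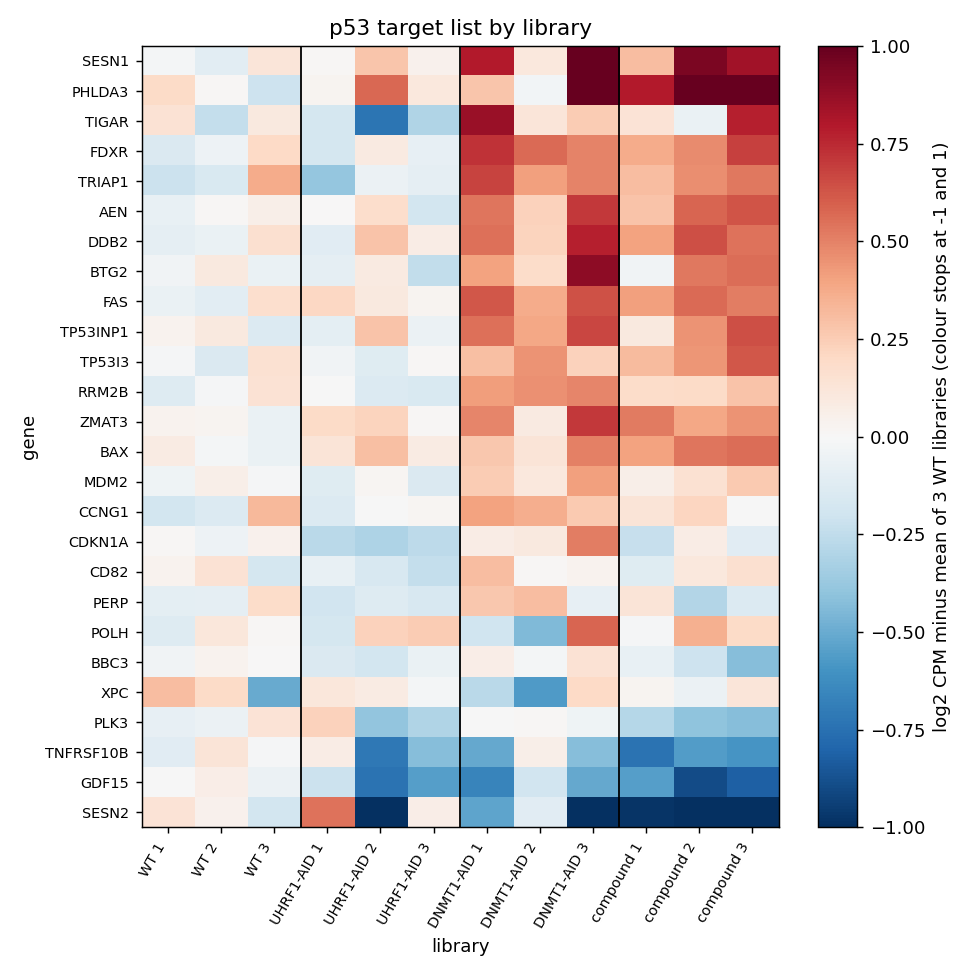
log2 CPM minus the mean of the 3 WT libraries (colour, which stops at -1 and 1) for the 26 tested p53 targets (y axis, ordered by pooled log2 fold change) in 12 day 0 libraries (x axis). Vertical lines separate WT, UHRF1-AID, DNMT1-AID and compound cells. Of the 26 rows 12 are above 0 in all 6 tagged libraries and 18 in at least 4, while SESN2 and GDF15 are below 0 in 6, PLK3 and TNFRSF10B in 5 and BBC3 in 4 of them. The same count was not made over all genes tested, so these rows only describe the list, which was singled out after its values were seen.

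Interferon-stimulated genes had 4 members higher and 0 lower of 49 tested by edgeR, with a median of 0.11. By DESeq2 7 were higher and 0 lower (background 3.03% and 3.30%), and 11 and 3 had an unadjusted p under 0.05 (background 11.1% and 10.4%). BST2 is given above. IFI27 rose by 1.38 (SE 0.288, adjusted p = 0.0439) from 0.711 ± 0.297 to 1.88 ± 0.725 CPM, and the ubiquitin-like ISG15 rose by 0.75 (SE 0.132, adjusted p = 0.0345) from 91.5 ± 19.4 to 154 ± 17.7 CPM (SD, n = 6). IFIT5 rose by 0.31 (adjusted p = 0.0465). In the fit with the length slope BST2 and LGALS3BP were higher (adjusted p = 0.0480 and 0.0498), whereas IFI27, ISG15 and IFIT5 did not pass (adjusted p = 0.0681, 0.0670 and 0.0909), and 10 were higher and 4 lower without the 3 libraries of strongest downward trend, where the background was 9.35% and 8.98%.

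ERK feedback and output genes had a median of -0.41 with 3 of 21 above 0, but 1 passed in each direction by edgeR. By DESeq2 1 was higher and 10 were lower, and at an unadjusted p under 0.05 1 and 14. The kinase PLK2 rose by 0.69 (SE 0.116, adjusted p = 0.0345) and the early response gene IER3 fell by 0.61 (SE 0.126, adjusted p = 0.0439). In the fit with the length slope PLK2 was higher and 0 were lower by edgeR, with a median of -0.31 and IER3 at an adjusted p of 0.0954. Without the 3 libraries of strongest downward trend 1 was higher and 10 lower, beside 9.35% and 8.98% of all genes. ATF4 and unfolded protein response genes had a median of -0.37 with 0 of 22 passing by edgeR and 4 by DESeq2, all lower, beside 1 higher and 7 lower at an unadjusted p under 0.05. Their median was -0.13 between DNMT1-AID and WT cells and -0.53 between compound and UHRF1-AID cells. In the pooled fit with the length slope 0 of the 22 passed by edgeR, with a median of -0.53. Without those libraries 1 was higher and 8 lower, beside the same 9.35% and 8.98% of all genes. Metallothioneins had a median of -0.43 with 0 of 4 passing by edgeR and 2 by DESeq2, both lower, and 3 at an unadjusted p under 0.05.

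Lists tied to DNA methylation were counted in the same way. Of 14 maintenance methylation genes DNMT1 itself was the member that passed, by edgeR and by DESeq2, and 4 had an unadjusted p under 0.05. Of 9 de novo methylation and demethylation genes, 7 methyl-CpG readers, 12 autosomal germline genes and 25 imprinted genes tested, 0 passed by edgeR. By DESeq2 2, 1, 0 and 3 did, all lower, and 2, 2, 0 and 7 had an unadjusted p under 0.05. In that order 1, 1, 5 and 5 had a fold change above 0. When the 3 libraries of strongest downward trend were left out, 0, 0, 1 and 2 were higher and 2, 3, 1 and 4 lower by edgeR. Of the maintenance genes 1 was higher and 3 lower there, beside 9.35% and 8.98% of all genes. Of 65 X-linked cancer/testis genes, which promoter methylation keeps silent in most tissues, 8 were tested and 0 passed by edgeR, 1 was higher by DESeq2, and 3 had an unadjusted p under 0.05, all higher. The fold changes of these 8 were above 0, beside 48.3% of all genes, with a median of 0.22 and of 0.04 with the length slope. In each background alone 7 of the 8 were above 0. MAGEA12 was at 0 CPM in each untagged library and thus entered the test through tagged ones. Which libraries carried the other tested members past the filter was not examined, so these counts and medians are a description. Without the 3 libraries of strongest downward trend 2 of the 8 cancer/testis genes were higher and 0 lower by edgeR. The background in that fit was 9.35% higher and 8.98% lower of all genes, for the next list too. Of 19 genes whose promoters are often methylated in colorectal cancer, TWIST1 and the X-linked nuclear export factor NXT2 were higher and 0 lower by edgeR. By DESeq2 5 were higher and 0 lower, and 7 and 2 had an unadjusted p under 0.05. With the length slope TWIST1 and RUNX3 were higher (adjusted p = 0.0255 and 0.0444) and NXT2 did not pass (adjusted p = 0.0517), and without those 3 libraries 4 were higher and 1 lower. NXT2 rose by 0.97 (SE 0.143, adjusted p = 0.0272), from 29.5 ± 3.46 to 58.8 ± 16.6 CPM (SD, n = 6).

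In the other lists at most 1 member passed by edgeR, and up to 7 by DESeq2. KRT19 was higher among 19 epithelial genes, by 0.38 (adjusted p = 0.0347), and TWIST1 among 16 mesenchymal genes. HBEGF was lower among 8 EGFR ligands and receptors, with a log2 fold change of -0.87 (adjusted p = 0.0460), and NOTUM among 13 beta-catenin targets, at -0.51 (adjusted p = 0.0362). NDRG1 was lower among 29 hypoxia and glycolysis genes, at -0.56 (adjusted p = 0.0381). POLA1, the catalytic subunit of DNA polymerase alpha, was lower among 42 S phase genes, at -0.37 (adjusted p = 0.0347). KRT19, TWIST1 and POLA1 also passed with the length slope as a covariate (adjusted p = 0.0295, 0.0255 and 0.0483). HBEGF, NOTUM and NDRG1 did not (adjusted p = 0.0720, 0.0720 and 0.0954), and PDK1 was the lower hypoxia gene there (adjusted p = 0.0436). By DESeq2 4 epithelial genes were higher and 0 lower, 2 mesenchymal genes were higher and 2 lower, 2 EGFR ligands and receptors and 1 beta-catenin target were lower, 1 hypoxia and glycolysis gene was higher and 6 lower, and 2 S phase genes were higher and 2 lower. In that order 8, 4, 4, 5, 10 and 11 members had an unadjusted p under 0.05. In the same order 6, 1, 0, 3, 0 and 5 were higher by edgeR without the 3 libraries of strongest downward trend. There 0, 2, 3, 3, 4 and 5 were lower, beside 9.35% higher and 8.98% lower of all genes. Of 54 G2/M phase genes, 39 cholesterol and fatty acid genes and 2 fibroblast and endothelial genes tested, 0 passed by edgeR. By DESeq2 3 of the first were higher, 5 of the second lower and 0 of the third passed. Of these lists 11, 10 and 1 members had an unadjusted p under 0.05. When the 3 libraries of strongest downward trend were left out, 7, 1 and 0 were higher and 3, 11 and 0 lower by edgeR. The background in that fit was 9.35% and 8.98% of all genes. No blood cell gene was tested. In bulk RNA fewer cells of a kind and less RNA per cell cannot be told apart.

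The effect was then estimated in each background. Neither contrast called a gene. Between DNMT1-AID and WT cells 1490 genes had an unadjusted p under 0.05 and MORC3 had an adjusted p under 0.05 (1 gene, 0.00691%). MORC3, a nuclear zinc finger protein named after its values were seen, was at 26.7 ± 1.71 CPM in WT and 14.2 ± 0.706 CPM in DNMT1-AID cells (SD, n = 3), a log2 fold change of -0.91 (SE 0.110, adjusted p = 0.0237). It was at 28.8 ± 2.76 CPM in UHRF1-AID and 24.4 ± 1.30 CPM in compound cells, at -0.24 (SE 0.108, adjusted p = 0.399). The difference between the backgrounds did not pass for MORC3 (adjusted p = 0.999). Between compound and UHRF1-AID cells 0 genes had an adjusted p under 0.05 by edgeR and 1766 an unadjusted one. By DESeq2 7 genes were called in the first contrast and 84 in the second. In fits of only the 6 libraries compared these counts were 1 and 50, and with the length slope as a covariate 0 and 34. Single libraries mattered here too. Between DNMT1-AID and WT cells 101 genes were called without WT replicate 3 and 2 without compound replicate 3. Between compound and UHRF1-AID cells 45 were called without UHRF1-AID replicate 2, 4 without DNMT1-AID replicate 3 and 3 without compound replicate 1. UHRF1-AID replicate 2 was the only UHRF1-AID library that, like the compound libraries, had 0 counts of PUDP and STS, as given at the end. Whether this bears on the fits without it was not tested.

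The difference between the backgrounds called 0 genes by edgeR and 0 by DESeq2, and 358 of 14472 had an unadjusted p under 0.05. Without UHRF1-AID replicate 2 it called 3. All 31 genes called in the pooled comparison had the same sign in both backgrounds, which the pooled call itself favours. SULT1A1 was at 1.77 (SE 0.307) and 1.93 (SE 0.300), TNFSF9 at 0.81 (SE 0.199) and 1.19 (SE 0.199), and TWIST1 at 0.92 (SE 0.263) and 1.48 (SE 0.254). FDXR was at 0.59 (SE 0.119) and 0.57 (SE 0.119).

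**Figure D5:**
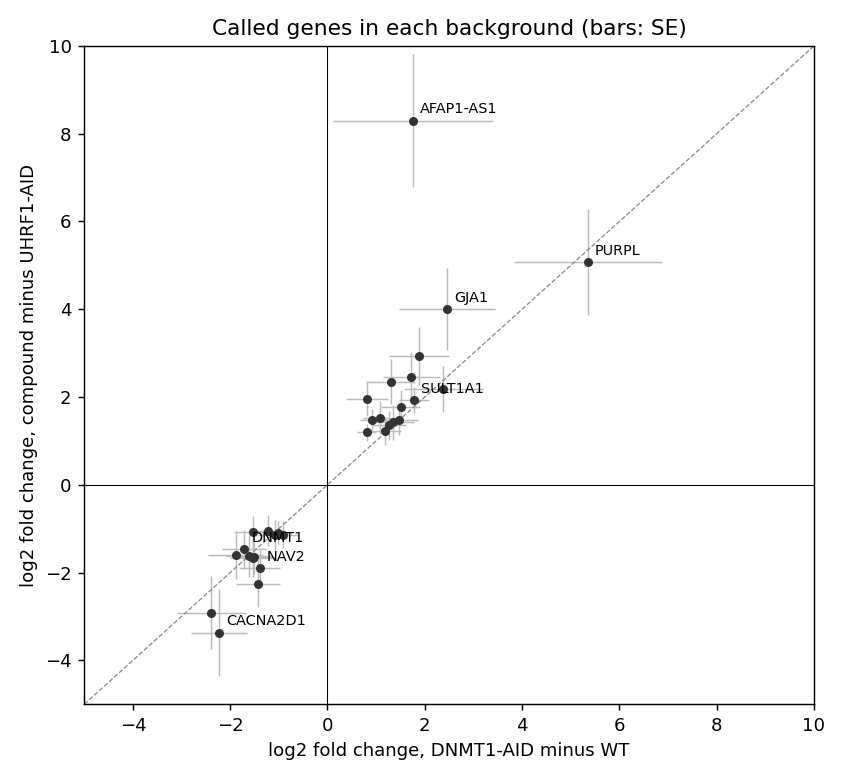
log2 fold change of the 31 called genes between DNMT1-AID and WT cells (x axis) and between compound and UHRF1-AID cells (y axis). Bars are SE, 3 libraries per line, and the dashed line marks equal values. SULT1A1 lay at 1.77 and 1.93, and AFAP1-AS1, at 1.75 and 8.30, lay farthest from the line. The value of 8.30 depends on the prior count, since AFAP1-AS1 had 0 counts in UHRF1-AID cells.

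The backgrounds share no library, and a separate fit was made of each with its own 6. Of the 100 genes with the smallest p between DNMT1-AID and WT cells, 60 were higher, and 59 of these were above 0 between compound and UHRF1-AID cells (98.3%, beside 48.3% of all 13701 genes tested in both). Of the 40 lower genes 37 were below 0 there (92.5%, beside 51.7%). In the reverse look-up 57 of 61 higher (93.4%) and 39 of 39 lower genes kept their sign. Across all 13701 genes 70.2% had the same sign in both, and the fold changes had a Spearman's rho of 0.51, as a description. Both fold changes also fell with gene length, with a rho of -0.31 in both, and the compound line descends from UHRF1-AID cells. The part of the length trend in the shared signs was not tested.

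After 4 days of auxin, 14 of the 17 genes called higher were tested between DNMT1-AID and WT cells, and 12 were higher there at an adjusted p under 0.05 (edgeR, 6 libraries), beside 682 of 13582 genes. COL6A3, SMIM22, AFAP1-AS1 and GJA1 were among the 12 but had entered the day 0 test only through tagged libraries. At day 4 AFAP1-AS1 and GJA1 were at 0 CPM in WT cells. The count of 12 is thus a description. Of 10 tested among the 14 called lower, 2 were lower at that threshold, beside 398 of 13582. DNMT1 was at 31.0 ± 12.5 CPM in WT and 15.3 ± 1.93 CPM in DNMT1-AID cells (SD, n = 3), with a log2 fold change of -1.02 (SE 0.275) that did not pass (adjusted p = 0.0699). In WT cells its mean at day 0, scaled separately, was 143 CPM. SULT1A1 was at 4.33 ± 0.607 CPM in WT and 27.0 ± 6.70 CPM in DNMT1-AID cells (SD, n = 3). BST2 was at 50.4 ± 7.90 CPM in WT and 675 ± 185 CPM in DNMT1-AID cells. SGPP2 and HS3ST3B1 were the lower pair, of which HS3ST3B1 had met the day 0 filter only through untagged libraries. Of the 26 p53 targets 2 were higher, with a median of 0.12. FDXR, which rose at day 0, was at 0.08 (SE 0.107, adjusted p = 0.669). These are the same lines, with the tagged protein removed in DNMT1-AID cells, and the values are not a repeat of day 0. Untagged WT cells differed between the days too, with BST2 at a mean of 1.67 CPM at day 0. The 6 day 4 libraries held between 146113 and 242575 counts on ERCC control sequences, and every day 0 library held 0. Levels at the 2 days thus cannot be set against each other as an effect of removing the protein.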

How the data were processed

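RNA-seq of 12 day 0 libraries was analysed, with 6 day 4 libraries for look-up. The authors prepared libraries with a NEBNext Ultra kit, sequenced paired ends, used STAR with hg38 for alignment and featureCounts for counting, per the labels. The authors deposited unnormalized counts for each gene. Strand and multimapping settings are not given in the sources used here, and values of genes that overlap, lie antisense or have close copies are therefore uncertain. Of 58735 Ensembl genes 58207 matched a symbol, and 92 ERCC sequences were left out.

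In edgeR 4.0.16 (R 4.3.3), low counts were removed by filterByExpr by line, libraries were scaled by TMM and genes were tested by the robust quasi-likelihood test over 12 libraries, with the tags as terms or with 4 line means for contrasts within a background. Standard errors are the fold change over the root of F. The fit was tested on simulated data. Alternatives were RLE scaling, other filters, DESeq2 1.42.0, no UHRF1 term, the average of both backgrounds, all 24 libraries, a replicate block, the length slope, and leaving out each library. Fits without 3 libraries, on the same genes or filtered anew, and the counts for p53 targets and for adjusted p alone under each alternative, were added after seeing the data.

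Named were DNMT1, UHRF1, the 10 smallest p in each direction among called genes, up to 3 called members per list, and 3 neighbours of DNMT1. The rule also covered genes called within a background or for the difference, of which edgeR gave none. List members that passed without the minimum fold, list members that passed with the length slope, PLK3, TNFRSF10B, BBC3, MAGEA12, CDKN1A, MDM2, SESN2 and GDF15 were named after their values were seen. The members and the 22 lists (S and G2/M phase from Seurat 5.3.0) were chosen with earlier results of these data known. Pairs of replicates differed by a chi-square per degree of freedom of 3.52 to 59.2, and each library counts once. Figures were drawn with matplotlib 3.10.9.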

Additional observations from a re-analysis of the deposited data

Results flagged for a closer look

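In 51 genes examined, each in 6 tagged and 6 untagged libraries, 10 of 102 groups held a library whose gap to its nearest neighbour was large for the range of the group. Chance gives about 1 in 20 such groups, and tagged and untagged groups each join 2 lines. The genes examined include PUDP, which was singled out after its values were seen. The count of 10 is therefore a description and no test against chance. In WT replicate 3, one of the libraries with a downward gene length trend, DNMT1 was at 73.6 CPM, with the next untagged library at 173 CPM. In the same library TRIAP1 was at 74.9 CPM with the next at 55.7, CCNG1 at 275 with the next at 223, and PERP at 420 with the next at 349. In UHRF1-AID replicate 2 PUDP was at 0 CPM with the next untagged library at 21.6, TNNC1 was at 2.42 with the next at 1.45, and PURPL was at 0.155 with the next at 0.0492. In DNMT1-AID replicate 2 TNFRSF10B was at 193 CPM with the next tagged library at 138, and CACNA2D1 was at 0.290 with the next at 0.0993. In compound replicate 3 BST2 was at 11.7 CPM with the next at 6.26. The cause was not tested for any of these.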

How the results depend on the processing

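No alternative turned the direction of DNMT1 or of the 27 other genes refitted, with 608 values. This is a description, since these genes had passed in the main fit and the refits share most of its libraries, which favours a kept direction. PURPL, COL6A3, SMIM22, HS3ST3B1, NELL2, CACNA2D1 and LINC02683 among them had met the count filter only through the group where they were higher. Of the 608 values 348 stayed past the threshold and 260 did not. Counts of calls, in contrast, moved widely, and the cause was not tested where the setting does not change the genes or libraries tested.

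Genes called higher (17) and lower (14) became 34 and 18 with no filter on low counts, 8 and 7 with at least 10 counts in every library, 89 and 54 with no minimum fold, 18 and 1 with the length slope, 7 and 3 without the UHRF1 term, 13 and 4 as the average of both backgrounds, 55 and 32 with all 24 libraries, 45 and 39 by DESeq2, and 89 and 79 in 9 libraries on the same genes or 106 and 74 filtered anew. Leaving out single libraries gave 1 to 62 and 0 to 73. At an adjusted p under 0.05 alone, 89 higher and 54 lower became 235 and 171 with no filter, 70 and 8 with the length slope, 28 and 7 without the UHRF1 term, 53 and 18 as the average, 314 and 180 with all 24 libraries, 425 and 463 by DESeq2 over its own genes (424 and 463 among the 14472), and 1353 and 1299 in 9 libraries on the same genes or 1342 and 1275 filtered anew, with ranges of 1 to 1099 and 0 to 815 without single libraries.

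p53 targets higher (7) became 12 with no filter, 3 without the UHRF1 term, 13 with all 24 libraries, 14 by DESeq2 and 16 in 9 libraries, and 0 to 14 without single libraries. Those lower (0) became 1 (SESN2) with all 24 libraries and in 9 libraries on the same genes, and 2 by DESeq2.

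Without the UHRF1 tag, 0 called genes became 7 with no filter, 1 with no minimum fold, 1 with only the 6 libraries compared and 7 by DESeq2, and 0 to 101 without single libraries. With the UHRF1 tag, 0 became 51 with no filter, 34 with the length slope, 50 with only the 6 libraries and 84 by DESeq2, and 0 to 45. The difference between backgrounds gave 0 to 3 without single libraries.

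DNMT1, at -1.59, lost its call with no filter (-1.59, adjusted p 0.0535), with the length slope (-1.06), without the UHRF1 term (-1.57) and as the average of both backgrounds (-1.59). Over the alternatives its adjusted p lay between 0.000433 by DESeq2 and 0.125, and its fold between -1.83 and -1.47 without single libraries.

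With a replicate block 1 gene was called higher and 0 lower, with and without the minimum fold, 0 p53 targets were higher, 1 gene was called with the UHRF1 tag, and DNMT1 was at -1.58 (adjusted p 0.0991). Deviations of same-numbered libraries had correlations from -0.678 to 0.0420, for WT with DNMT1-AID and UHRF1-AID with compound libraries. Other pairs of lines were not compared, and the gene length trend differed within WT and DNMT1-AID cells. Whether the numbers pair the libraries therefore cannot be told from these values.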

Other observations

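PUDP and STS, neighbours on chromosome X (7048920 to 7148190 and 7219456 to 7354810), had 0 counts in UHRF1-AID replicate 2 and in all 3 compound libraries. In the other 8 day 0 libraries PUDP had between 418 and 654 counts and STS between 22 and 40. These were the only 2 genes with at most 3 counts in those 4 libraries and at least 20 in the other 8. With UHRF1-AID replicate 1 or 3 in place of replicate 2 there were 0 such genes. ANAPC5, on chromosome 12, was at 60.4 CPM in UHRF1-AID replicate 2 and between 57.4 and 65.7 CPM in compound cells, and between 112 and 164 CPM in the other 8 libraries. These genes were singled out after their values were seen. PUDP had a pooled log2 fold change of -2.06 (SE 1.41, adjusted p = 0.417 by edgeR).

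The genes whose log2 CPM followed DNMT1 most closely over the 12 libraries, as a description with no test, were UBE3B, PTK2B and STK4, with Pearson's r of 0.956, 0.956 and 0.955. Their summed exon lengths of 12453, 7933 and 9075 bases are above the median of 4684.5.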
